A study of Homo sapiens with 16 samples.

Results

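The comparison described here asked what lactate did to gene expression in DU145 cells that were already under the BET bromodomain inhibitor I-BET762. It set 4 libraries labelled as given lactate and I-BET762 against 4 libraries labelled as given I-BET762, so that, by the labels, all 8 libraries carried the inhibitor and differed in lactate. For 1 library the level of a gene used to check the labels put this in doubt, as given further on. These are 8 of the 16 libraries of the study, whose other 8 were untreated controls and cells given lactate without the inhibitor, 4 of each. DU145 is an established human prostate cancer line, and polyadenylated RNA was sequenced. The labels name 4 independent replicates per group, and neither the dose of an agent nor the length of a treatment is among them. Because the labels do not say that replicates were separate cultures, the p-values measure the spread between these libraries, which may be technical. In the 4 libraries with both agents the cell line entry carries running line numbers in place of DU145, and the DU145 of their titles was followed. A model of 1 cell line in culture holds none of the stroma or vessels of a tumour.

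Lactate is the end product of glycolysis and can be taken up through monocarboxylate transporters, turned into pyruvate and burned or used to make acetyl-CoA, the building block of fatty acids and sterols and the donor for histone acetylation. BET proteins bind acetylated histones at promoters and enhancers and help RNA polymerase II to elongate, and I-BET762 occupies the pocket with which they do so. Cells that lack oxygen stabilise the hypoxia-inducible factors (HIFs), which raise glycolytic enzymes and pyruvate dehydrogenase kinases. Cells short of amino acids raise the transcription factor ATF4, which drives amino acid transporters, serine synthesis and aminoacyl-tRNA synthetases.

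The 8 libraries held 13741178 to 16847884 counts, and the 14058 genes tested took at least 99.83% of the counts of each. Levels are CPM, counts scaled to a fixed library total, on TMM-scaled library sizes, and a gene is called higher or lower at a Benjamini-Hochberg adjusted p under 0.05 in edgeR's quasi-likelihood test of these 8 libraries. HEXIM1, an inhibitor of transcription elongation which BET inhibitors are known to induce, was used to check the labels. On a scale common to all 16 libraries the libraries labelled I-BET762 replicates 1, 3 and 4 held 148.8, 113.3 and 113.8 CPM of it, those with both agents 115.1 to 156.9 CPM and the lactate libraries 69.6 to 86 CPM. Controls 1, 3 and 4 held 70 to 77.4 CPM. The library labelled I-BET762 replicate 2 held only 89.6 CPM, less than any other library labelled with the inhibitor. It still lay above the lactate libraries and controls 1, 3 and 4. The library labelled control replicate 2 held 135.1 CPM, within the range of the libraries labelled with the inhibitor. On this gene the labels of both libraries are in doubt. The results below keep the labels as given, and their values without the library labelled I-BET762 replicate 2 are printed where a named call was lost or gained, or the count of a list in 1 direction moved by 1.5 times or more, without it. Keratins of a luminal epithelium were abundant (KRT8 at 1058 to 1421 CPM), while KLK3, a secreted product of that epithelium, had at most 1 count in any of the 8 libraries.

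In a principal component analysis of the 8 libraries the first component, with 40.8% of the variance, separated the groups: the I-BET762 libraries lay between -24.3 and -15.6 and those with lactate added between 13.9 and 28.6. The second component, with 23.4%, separated replicates 1 and 2 (14.2 to 18) from replicates 3 and 4 (-22.5 to -7.8) in both groups alike, a split that the labels do not name. Across genes, Spearman's rho of a library's deviation on GC content averaged -0.15 ± 0.20 (SD, n = 4) in the I-BET762 libraries and 0.16 ± 0.22 with lactate added (exact permutation test, two-sided, p = 0.114, adjusted over 2 trends p = 0.143; the smallest that 4 against 4 allows is 0.0286). The genes called higher had a median GC content of 54.5% and those called lower of 45.2%, against 48% of all genes tested.

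**Figure D1:**
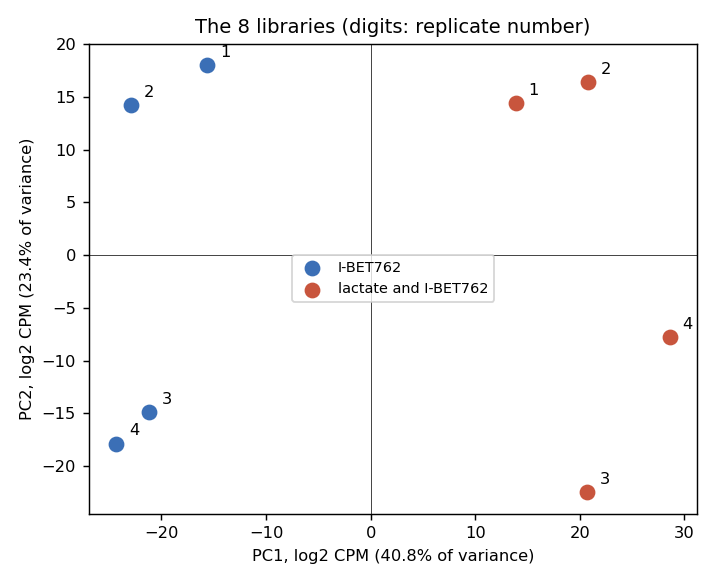
Scores of the 8 libraries on the first and second principal components of log2 CPM, with digits for the replicate number and colours for the group. The I-BET762 libraries lie at the negative end of the first axis and the libraries with lactate added at the positive end, and on the second axis replicates 1 and 2 of both groups lie above replicates 3 and 4.

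Lactate moved a large share of the transcriptome of inhibitor-treated cells. Of the 14058 genes tested, 1294 were higher (9.2%) and 1241 lower (8.83%) with lactate. These shares are the background for the counts of every list below. The rises were the larger changes. Among the genes that rose, 224 did so at least 2-fold and the median log2 fold change was 0.58. Among those that fell, 81 did so at least 2-fold and the median was -0.38. The median log2 fold change of all genes tested was 0. In 1153 of the genes called higher and 1099 of those called lower the libraries of the groups did not overlap. These genes were called on the same libraries, so this describes the calls and adds no separate support. Of all genes tested, 22.9% showed no overlap. Protein-coding genes made up 91.7% of the rises and 90.4% of the falls. In RNA from whole cultures, fewer cells of a kind and less RNA per cell cannot be told apart.

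Without the library labelled I-BET762 replicate 2, 1389 genes were higher (9.73% of 14280) and 1022 lower (7.16%), and 1150 of the rises and 886 of the falls were called again. The count was 1657 without I-BET762 replicate 3, 1604 without I-BET762 replicate 4 and 1457 without lactate and I-BET762 replicate 4, and the falls alone numbered 749 without lactate and I-BET762 replicate 2. Within replicates 1 and 2 alone 488 genes were called and within replicates 3 and 4 alone 3590. Of the 2535 genes called, 2533 had a value in the former and 2534 in the latter, and every one of these kept its direction in both. A model of all 16 libraries, which pools the spread of the 4 groups, called 720.

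**Figure D2:**
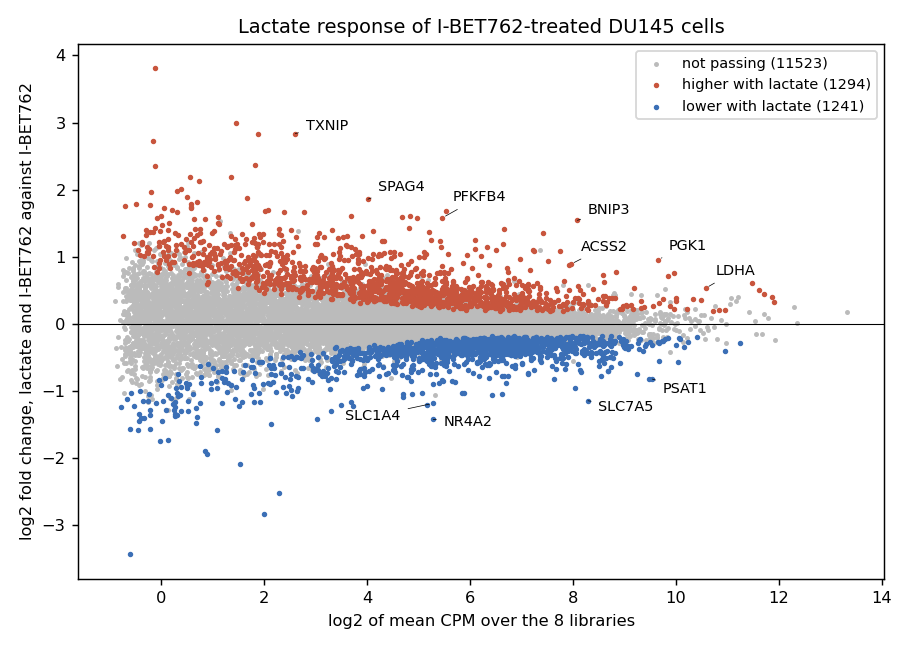
Each point is 1 of the 14058 genes, with the log2 of its mean CPM over the 8 libraries on the x axis and its log2 fold change (lactate and I-BET762 against I-BET762) on the y axis. Red points are the 1294 genes called higher and blue points the 1241 called lower, and of the genes written in the plot TXNIP (2.84) and SPAG4 (1.86) reach farthest up and NR4A2 (-1.42) farthest down.

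Genes of the hypoxia response rose as a group. Of 29 tested members 25 were higher and 0 lower, with a median log2 fold change of 0.77, where 9.2% of all genes were higher. BNIP3 (ENSG00000176171, chromosome 10, 131966455 to 131982013, minus strand), a mitophagy receptor, stood at 159.0, 123.1, 143.2 and 129.8 CPM with I-BET762 and at 388.5, 413.0, 413.3 and 403.1 CPM with lactate added. Every library with lactate lay above every library without, and the log2 fold change was 1.54 (SE 0.08, edgeR adjusted p = 1.99e-06). FAM162A, a HIF target that encodes a mitochondrial protein, rose from 22.4 ± 2.6 to 53.2 ± 4.0 CPM (SD, n = 4 each; 1.25, SE 0.10, edgeR adjusted p = 3.69e-05). Enzymes that modify collagen rose with them. LOX, which crosslinks collagen, went from 10.8, 13.0, 17.5 and 14.4 CPM to 35.8, 43.1, 47.1 and 44.9 CPM (1.61, SE 0.14), and the prolyl hydroxylase P4HA1 rose by 1.10. SPAG4, another HIF target, had the largest rise of the list, from 6.5, 7.8, 7.6 and 6.1 CPM to 23.2, 28.1, 22.2 and 27.8 CPM (1.86, SE 0.13, edgeR adjusted p = 2.13e-05). Feedback genes rose too, among them the oxygen sensor EGLN3 (0.96). NDRG1 stood at 118.7 to 174.5 CPM with I-BET762 and at 269.2 to 319.0 CPM with lactate (1.09), and the transcription repressor BHLHE40 rose by 1.02.

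The members that did not pass were STC2 (-0.32, adjusted p = 0.12), ADM (0.01, adjusted p = 0.983), VEGFA (0.12, adjusted p = 0.477) and WSB1 (0.29), so the angiogenic factor best known from hypoxia was not among the rises. VEGFA stood at 362.5, 547.4, 535.5 and 506.9 CPM with I-BET762 and at 495.2 to 567.0 CPM with lactate, and the groups overlapped. The mean of the list in each library, relative to the I-BET762 mean, was -0.05 to 0.05 with I-BET762 and 0.74 to 0.87 with lactate on the log2 scale. The gap between the groups was far wider than the spread within either. The count was again 25 of 29 without the library labelled I-BET762 replicate 2, and 22 of the 25 were called with each of the 8 libraries left out in turn. The median was 0.82 after correction for GC content.

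The promoters of 4 of these HIF-type targets are shown because they rose with small spread and carry the letters that HIFs are known to read. Each is the 250 bases before the annotated start in RefSeq (GRCh38.p14), read 5′ to 3′ on the gene's strand, at chr10:131981924-131982173 (minus) for BNIP3, chr3:48556804-48557053 (minus) for PFKFB4, chrX:78103998-78104247 (plus) for PGK1 and chr3:122383932-122384181 (plus) for FAM162A. Capitals mark ACGTG or GCGTG on either strand, of which BNIP3 holds 6, PFKFB4 1, PGK1 3 and FAM162A 4, with runs of capitals where matches touch or overlap.
BNIP3: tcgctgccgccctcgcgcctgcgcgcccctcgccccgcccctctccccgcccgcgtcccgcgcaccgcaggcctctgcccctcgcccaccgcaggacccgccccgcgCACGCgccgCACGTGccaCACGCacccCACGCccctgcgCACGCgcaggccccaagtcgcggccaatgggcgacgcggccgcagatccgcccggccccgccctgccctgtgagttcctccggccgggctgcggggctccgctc
PFKFB4: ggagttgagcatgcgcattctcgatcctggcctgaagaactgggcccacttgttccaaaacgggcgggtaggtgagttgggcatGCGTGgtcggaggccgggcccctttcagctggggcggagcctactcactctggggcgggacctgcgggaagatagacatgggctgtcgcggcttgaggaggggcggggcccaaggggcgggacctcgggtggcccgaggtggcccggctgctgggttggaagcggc
PGK1: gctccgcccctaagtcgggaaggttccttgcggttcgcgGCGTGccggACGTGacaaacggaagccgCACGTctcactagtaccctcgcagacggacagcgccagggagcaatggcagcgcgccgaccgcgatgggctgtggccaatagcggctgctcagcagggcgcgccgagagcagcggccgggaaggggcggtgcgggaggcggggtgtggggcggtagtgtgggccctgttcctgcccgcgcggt
FAM162A: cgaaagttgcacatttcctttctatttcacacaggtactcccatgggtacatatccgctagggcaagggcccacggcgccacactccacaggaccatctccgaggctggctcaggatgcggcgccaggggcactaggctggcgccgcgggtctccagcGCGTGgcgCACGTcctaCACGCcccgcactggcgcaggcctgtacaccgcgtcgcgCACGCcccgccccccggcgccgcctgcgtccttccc
These letters are common. They occur in 43.2% of the 35116 promoters of that table and in 57.8% of the 10461 tested genes with an entry. The share was 56.4% among genes called higher and 57.9% among genes called lower. It was 18 of 22 (81.8%) for the hypoxia list and 12 of 19 (63.2%) for glycolysis. STC2, ADM and WSB1, hypoxia members that did not pass, hold the letters too. In lists described below where falls outnumbered rises, it was 12 of 16 (75%) for the aminoacyl-tRNA synthetases. For the ATF4 list it was 7 of 13 (53.8%) and for the amino acid transporters 9 of 17 (52.9%). A match is a description of the sequence and not a bound site.

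Glycolysis rose along most of its length. Of 19 tested members 14 were higher and 0 lower, with a median log2 fold change of 0.45. At the entry, hexokinase HK2 went from 16.1, 10.6, 18.9 and 17.0 CPM to 45.1, 45.3, 49.9 and 47.9 CPM (1.58). At the committed step, the phosphofructokinase PFKL rose by 1.35. PFKFB4 (ENSG00000114268, chromosome 3, 48517684 to 48562015), which makes and removes an activator of phosphofructokinase, rose from 19.6, 22.8, 22.2 and 23.7 CPM to 64.0, 63.0, 69.4 and 67.7 CPM (1.58, SE 0.08, edgeR adjusted p = 1.99e-06). Its relative PFKFB3 rose by 0.83. Farther down the pathway, PGK1, which makes the first ATP, rose from 609.8, 531.0, 528.2 and 519.3 CPM to 1018.2, 1067.6, 1093.9 and 1069.5 CPM (0.96, SE 0.07, edgeR adjusted p = 2.13e-05). The triosephosphate isomerase TPI1 rose by 0.72 and GAPDH by 0.44. ENO2, the neuronal enolase, rose from 60.4, 43.6, 62.1 and 56.2 CPM to 134.2, 144.8, 161.8 and 151.0 CPM (1.41). In HK2, PFKFB4, PGK1 and ENO2 no library of one group reached into the other. The pyruvate kinase PKM (0.02) and the aldolase ALDOA (0.69, adjusted p = 0.0865) were among the 5 members that did not pass. The count was 14 of 19 without the library labelled I-BET762 replicate 2 as well, and 13 of the 14 were called with each library left out in turn.

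Genes that move or route lactate and pyruvate changed in part. Of 19 tested members 5 were higher and 0 lower, with a median of 0.09. SLC16A3 (ENSG00000141526, chromosome 17, 82228397 to 82261129), which encodes the exporter MCT4, stood at 178.1, 169.7, 178.7 and 157.9 CPM with I-BET762 and at 248.4, 303.7, 283.3 and 419.5 CPM with lactate. The groups did not overlap, although 1 library with lactate stood well above the other 3 (0.87, SE 0.13, edgeR adjusted p = 0.00171). LDHA, the dehydrogenase subunit that favours making lactate, rose from 1251 ± 128 to 1810 ± 109 CPM (SD, n = 4 each; 0.53, SE 0.08, edgeR adjusted p = 0.00142). LDHB, the subunit that favours its oxidation, stood at 71.2 to 87.3 CPM and at 69.6 to 75.7 CPM (-0.15, adjusted p = 0.188). The importer SLC16A1 had at most 1 count in each of the 8 libraries and was not tested, which is no statement on whether the transcript is present. The pyruvate dehydrogenase kinases, which keep pyruvate out of the mitochondrial acetyl-CoA pool, were led by PDK1. It rose from 16.0, 14.3, 10.8 and 9.9 CPM to 37.2, 36.9, 39.5 and 40.2 CPM (1.60, SE 0.14, edgeR adjusted p = 7.14e-05), and PDK3 rose by 0.66. PDK4 was at 0.47 (adjusted p = 0.229), and at 0.76 (adjusted p = 0.0489) without the library labelled I-BET762 replicate 2. Without that library 7 members of 20 were higher.

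The largest rise by the rule for named genes was that of TXNIP, which holds back glucose uptake and binds thioredoxin. It stood at 0.8, 0.9, 2.2 and 2.0 CPM with I-BET762 and at 3.9, 5.5, 17.7 and 15.7 CPM with lactate (log2 fold change 2.84, SE 0.51, edgeR adjusted p = 0.00406). In both groups replicates 3 and 4 stood above replicates 1 and 2, and within each such pair of replicates the libraries with lactate were higher. ARRDC4, its close relative, had a value of 0.31 (adjusted p = 0.53). UCP2, a carrier of the inner mitochondrial membrane, rose from 30.1, 21.2, 19.5 and 17.8 CPM to 68.2, 62.0, 76.4 and 76.4 CPM (1.68, SE 0.15).

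**Figure D3:**
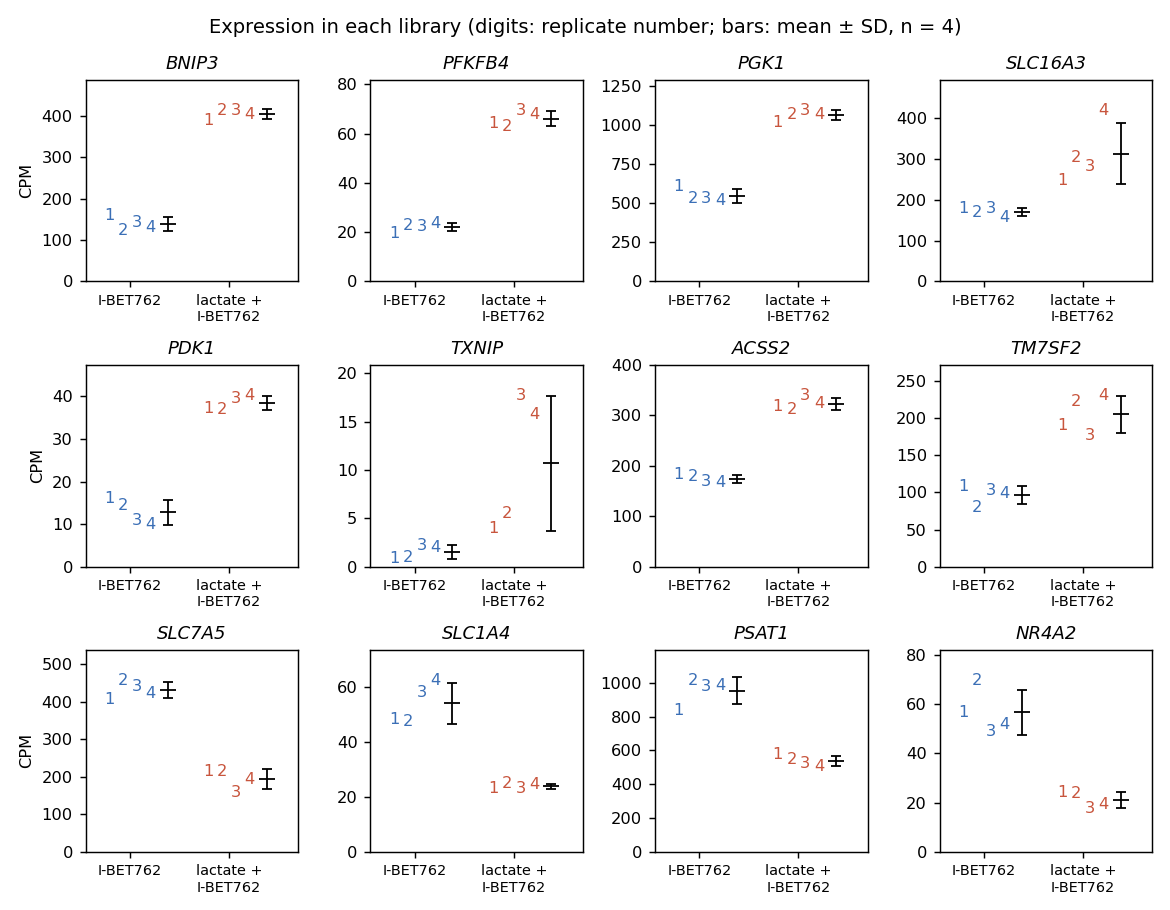
CPM in each library for 12 genes, with digits for the replicate number, the I-BET762 group on the left and lactate and I-BET762 on the right, and black bars for the mean ± SD (n = 4). BNIP3, PFKFB4, PGK1, SLC16A3, PDK1, TXNIP, ACSS2 and TM7SF2 lie higher in every library with lactate and SLC7A5, SLC1A4, PSAT1 and NR4A2 lower, and TXNIP differs between replicates 1 and 2 and replicates 3 and 4 in both groups.

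Enzymes that make cytosolic acetyl-CoA rose. ACSS2 (ENSG00000131069, chromosome 20, 34872146 to 34927962), which makes acetyl-CoA from acetate, went from 183.2, 179.5, 168.0 and 167.7 CPM to 317.8, 312.5, 339.4 and 324.2 CPM. The groups lay far apart (log2 fold change 0.89, SE 0.06, edgeR adjusted p = 2.13e-05). ACLY, which makes it from citrate, went from 1346.1, 1131.4, 1283.0 and 1250.7 CPM to 1720.5, 1573.7, 1636.8 and 1508.5 CPM (0.36, SE 0.07, edgeR adjusted p = 0.00523). The mitochondrial citrate carrier SLC25A1 rose by 0.54, but stood at 0.33 (adjusted p = 0.115) after correction for GC content. Fatty acid synthesis as a list held 5 members higher and 1 lower of 18, with a median of 0.19. The member that fell was SREBF1 (-0.45, adjusted p = 0.0195), the transcription factor of lipid synthesis, with adjusted p = 0.0552 without the library labelled I-BET762 replicate 2. FASN, the synthase itself, had a value of 0.52 (adjusted p = 0.055) with overlapping groups.

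Sterol synthesis rose more broadly, with 14 of 25 members of the cholesterol list higher and 0 lower (median 0.28). TM7SF2, a sterol reductase, led it, from 107.8, 80.0, 102.4 and 98.1 CPM to 190.5, 222.3, 177.1 and 230.5 CPM (1.08, SE 0.11, edgeR adjusted p = 0.000129). The other rises were smaller, such as NSDHL (0.43) and the farnesyl diphosphate synthase FDPS (0.38, from 886 ± 41 to 1153 ± 50 CPM, SD, n = 4 each). HMGCS1 (0.09) and SQLE (0.14), classic targets of the sterol regulator SREBP2, did not pass. Without the library labelled I-BET762 replicate 2 the count was 16 of 25, HMGCS1 among them (0.21, adjusted p = 0.0487). Of the 14 members, 11 were called with each library left out in turn. Within replicates 1 and 2 alone 3 members were called, and in the model of all 16 libraries 4.

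In fatty acid oxidation 7 of 25 members were higher and 0 lower (median 0.12), and 4 of the 7 were called with each library left out in turn. These were the acyl-CoA dehydrogenases ACADVL (0.54), ACADS (0.74) and ACAD9 (0.38) and CPT1C (1.34, from 2.1 ± 0.6 to 5.3 ± 0.5 CPM, SD, n = 4 each). Without I-BET762 replicate 4, and likewise without lactate and I-BET762 replicate 4, 4 members of the list were higher. CPT1A, the carnitine transferase that controls entry of fatty acids into mitochondria, did not pass (-0.21, adjusted p = 0.126). Of 14 members of fatty acid uptake and activation 2 rose, where 9.2% of all genes were higher. They were the transporter SLC27A1 (1.30) and the acyl-CoA synthetase ACSF2 (1.04).

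The list of lipid droplets and triglyceride storage held 1 member higher and 4 lower of 22 (median -0.07). HILPDA, an inhibitor of lipid droplet breakdown that is also a hypoxia gene, rose from 13.8, 11.8, 11.7 and 13.5 CPM to 22.4, 23.5, 29.4 and 28.0 CPM (1.02, SE 0.12, edgeR adjusted p = 0.000338). G0S2, an inhibitor of the same lipase, fell by 0.76, and the acyltransferase GPAT3, which starts triglyceride synthesis, fell by 0.70. PLIN2, the coat protein of lipid droplets, had a value of 0.35 (adjusted p = 0.134), and of 0.50 (adjusted p = 0.0428) without the library labelled I-BET762 replicate 2. Without that library 3 members were higher and 4 lower. Of 13 targets and coactivators of the peroxisome proliferator-activated receptors 3 were higher and 0 lower, and 5 were higher without that library. ANGPTL4, an inhibitor of lipoprotein lipase and member of that list, stood at 0.48 (adjusted p = 0.0566) and at 0.65 (adjusted p = 0.0142) without I-BET762 replicate 1 and 0.55 (adjusted p = 0.0441) without lactate and I-BET762 replicate 3.

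Genes of amino acid supply fell together. Of 19 tested amino acid transporters 10 were lower and 1 higher, with a median of -0.45, where 8.83% of all genes were lower. SLC7A5 (ENSG00000103257, chromosome 16, 87830023 to 87869488), the importer of leucine and other large neutral amino acids, fell from 406.8, 456.3, 440.6 and 421.8 CPM to 214.6, 213.6, 158.1 and 193.3 CPM. The groups did not overlap (-1.15, SE 0.09, edgeR adjusted p = 4.89e-05). Its partner chain SLC3A2 fell by 0.50 on the log2 scale. The serine and alanine transporter SLC1A4 fell from 48.0, 47.4, 58.0 and 62.1 CPM to 22.9, 24.8, 22.9 and 24.4 CPM (-1.18, SE 0.10). The glutamine transporter SLC1A5 fell from 290.3, 355.3, 374.8 and 370.7 CPM to 175.9, 170.6, 178.4 and 195.4 CPM (-0.95), and SLC38A1 from 755 ± 74 to 450 ± 41 CPM (SD, n = 4 each; -0.75). The cystine importer SLC7A11 fell by 1.06. In SLC1A4, SLC1A5, SLC38A1 and SLC7A11 too, every library with lactate lay below every library without. The 1 member that rose was the glutamate transporter SLC1A1, from 6.2 to 8.1 CPM up to 12.9 to 16.7 CPM (1.08). All 11 calls were made with each library left out in turn.

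The ATF4 programme fell with them. Of 17 tested members 10 were lower and 0 higher, with a median of -0.55. ATF4 itself, whose protein is controlled mainly at translation, fell from 618.9, 648.2, 593.1 and 573.1 CPM to 505.4, 471.6, 434.3 and 466.6 CPM (-0.37, edgeR adjusted p = 0.0034). The serine synthesis enzymes fell as a set of 3: PHGDH by 0.59, PSPH by 0.55 and PSAT1 by 0.82. PSAT1 went from 835.4, 1012.1, 975.8 and 985.6 CPM to 576.8, 547.2, 524.2 and 504.2 CPM (SE 0.07, edgeR adjusted p = 7.14e-05). MTHFD2, of the mitochondrial folate pathway that uses serine, fell by 0.64. CHAC1, which degrades glutathione, fell from 36.7, 39.7, 50.9 and 52.9 CPM to 21.4, 23.4, 19.2 and 24.6 CPM (-1.03, SE 0.13, edgeR adjusted p = 0.000688). The asparagine synthetase ASNS stood at 1.0 to 3.1 CPM and did not pass (-0.78, adjusted p = 0.0679), nor did the stress factor DDIT3 (-0.08). The mean of the list in each library, relative to the I-BET762 mean, was -0.13 to 0.11 with I-BET762 and -0.61 to -0.44 with lactate. There was no overlap. Of the 10 falls, 8 were called with each library left out in turn, and 9 were called without the library labelled I-BET762 replicate 2.

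Aminoacyl-tRNA synthetases, which load amino acids onto tRNA, fell as well, with 10 of 19 lower and 1 higher (median -0.30). MARS1 fell from 507 ± 33 to 311 ± 14 CPM (SD, n = 4 each; -0.70, SE 0.07), GARS1 by 0.58, TARS1 by 0.56 and IARS1 by 0.44. Of the 11 calls 9 were made with each library left out in turn. The promoters of CHAC1 and IARS1, again the 250 bases before the RefSeq start, are shown because each holds the element TGATGNAA that ATF4 is known to bind with its partners, in capitals and here on the opposite strand. They lie at chr15:40953221-40953470 (plus) and chr9:92293698-92293947 (minus).
CHAC1: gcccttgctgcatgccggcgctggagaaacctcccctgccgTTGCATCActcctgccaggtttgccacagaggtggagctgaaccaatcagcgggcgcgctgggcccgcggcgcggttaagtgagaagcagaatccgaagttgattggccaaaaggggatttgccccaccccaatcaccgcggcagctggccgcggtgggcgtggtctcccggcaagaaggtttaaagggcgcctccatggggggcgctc
IARS1: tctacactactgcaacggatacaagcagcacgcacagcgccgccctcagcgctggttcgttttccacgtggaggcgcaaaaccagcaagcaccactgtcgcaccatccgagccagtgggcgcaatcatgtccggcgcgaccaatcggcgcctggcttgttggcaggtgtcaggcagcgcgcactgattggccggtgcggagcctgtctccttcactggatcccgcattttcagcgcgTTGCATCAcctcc
On either strand the element is in 3.14% of all promoters of the table, in 1.38% of the tested genes with an entry, in 0.804% of those called higher and in 1.79% of those called lower. In the ATF4 list it is in 3 of 13 (23.1%; ASNS, ATF3 and CHAC1), in the synthetases in 2 of 16 (AARS1 and IARS1) and in the transporters in 1 of 17. Of these, CHAC1 and IARS1 fell, while ASNS, ATF3 (0.09), AARS1 (-0.22) and the transporter with the element, SLC1A3 (-0.38, adjusted p = 0.159), did not pass.

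Antioxidant genes fell more often than they rose, with 13 of 24 lower and 2 higher (median -0.23). Many are targets of NRF2, the factor that answers oxidants. OSGIN1, an oxidant-responsive growth inhibitor, fell from 32.3, 24.4, 45.3 and 39.3 CPM to 13.3, 15.9, 15.7 and 21.6 CPM (-1.09, SE 0.19, edgeR adjusted p = 0.00343). The quinone reductase NQO1 fell from 1253 ± 95 to 848 ± 38 CPM (SD, n = 4 each; -0.56), the glutathione reductase GSR by 0.52 and the glutathione synthesis enzyme GCLC by 0.30. SQSTM1, an autophagy receptor and NRF2 target counted in the lysosome list, fell by 0.78. GPX4, which protects membranes from lipid peroxides, rose by 0.51. SLC7A11 belongs to this list and to the transporters, so the lists are not separate counts. Without I-BET762 replicate 4, 8 members were lower, and within replicates 1 and 2 alone 4 were. The model of all 16 libraries also called 4 lower. In the lysosome list 2 members of 24 were higher and 4 lower (median 0.01), and 4 were higher and 3 lower without the library labelled I-BET762 replicate 2.

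Among immediate early genes the orphan nuclear receptors fell. NR4A2 (ENSG00000153234, chromosome 2, 156324432 to 156342348) had the largest fall by the rule for named genes, from 56.8, 69.6, 48.8 and 51.9 CPM to 24.2, 23.8, 17.6 and 19.1 CPM. The highest library with lactate held less than the lowest without (-1.42, SE 0.14, edgeR adjusted p = 9.61e-05). NR4A3 fell by 1.21 on the log2 scale, from 50.2 ± 7.1 to 21.6 ± 3.8 CPM (SD, n = 4 each), while the third relative, NR4A1, had a value of -0.13 and did not pass. The AP-1 subunits went in different directions, with JUN higher (0.62, edgeR adjusted p = 0.00202) and FOSL1 lower (-0.47, edgeR adjusted p = 0.0109). EGR1 stood at 66.3, 28.9, 159.9 and 160.5 CPM with I-BET762 and at 86.4, 71.8, 369.6 and 367.3 CPM with lactate, with overlapping groups and more between the replicate pairs than between the groups (1.10, adjusted p = 0.216). In all, 2 of 24 members of this list were higher and 5 lower, and 4 of these 7 were called with each library left out in turn. The list held 1 higher and 3 lower of 25 without the library labelled I-BET762 replicate 2.

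Genes of growth and division showed small falls. In the mitosis list 9 of 26 members were lower and 0 higher (median -0.20), in DNA replication 6 of 30 and 0 (median -0.17) and in ribosome biogenesis 9 of 27 and 0 (median -0.26). The kinesin CENPE fell by 0.50, from 103.6 ± 6.5 to 73.5 ± 7.8 CPM (SD, n = 4 each), and KIF20A by 0.44. The replicative helicase subunit MCM3 fell by 0.46, from 344 ± 21 to 249 ± 18 CPM, and the clamp loader subunit RFC4 by 0.38. UTP20, of the machinery that processes ribosomal RNA, fell by 0.60, NOP16 by 0.52 and NOP58 by 0.31. MYC, which drives ribosome biogenesis, stood at 90.5 ± 6.2 and 83.4 ± 6.9 CPM (-0.12, edgeR adjusted p = 0.315). These counts were not stable. With each library left out in turn the mitosis count ran from 3 to 11, with 5 without I-BET762 replicate 1, 4 without lactate and I-BET762 replicate 2 and 3 without lactate and I-BET762 replicate 4. For DNA replication the same libraries gave 2 each. For ribosome biogenesis they gave 5, 4 and 5, and leaving out lactate and I-BET762 replicate 3 also gave 5. In the model of all 16 libraries 0, 1 and 0 members of these lists were lower. Without the library labelled I-BET762 replicate 2 they held 6, 5 and 9.

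Cytosolic ribosomal protein genes held 5 members higher and 0 lower of 30, with a median of 0.09 and no log2 fold change above 0.26. None of the 5 was called with each library left out in turn, and 9 were higher without the library labelled I-BET762 replicate 2. The nuclear-encoded respiratory chain held 0 higher and 3 lower of 36 (median 0.02), a share close to the 8.83% of all genes that were lower. It held 1 higher and 2 lower without the library labelled I-BET762 replicate 2. Of the 3, NDUFB10 was called with each library left out in turn (-0.32, from 60.9 ± 2.1 to 48.7 ± 0.8 CPM, SD, n = 4 each). Of the 13 mitochondrially encoded transcripts 3 were higher and 1 lower (median 0.27). The rises were the cytochrome oxidase subunits MT-CO1 (0.40), MT-CO2 (0.61) and MT-CO3 (0.50, from 2587 ± 321 to 3656 ± 340 CPM, SD, n = 4 each). The fall was that of MT-ND6, the 1 protein transcribed from the other strand of the mitochondrial genome, at -1.04 (adjusted p = 0.045). MT-ND6 missed the threshold when I-BET762 replicate 1 was left out, without the library labelled I-BET762 replicate 2 (adjusted p = 0.117) and without lactate and I-BET762 replicate 2, 3 or 4, with adjusted p up to 0.122. In both groups these transcripts as a list were higher in replicates 1 and 2 than in replicates 3 and 4. Relative to the I-BET762 mean they stood at 0.30, 0.09, -0.16 and -0.23 with I-BET762 and at 0.47, 0.34, -0.12 and -0.04 with lactate. The tricarboxylic acid cycle held 4 members higher and 0 lower of 23 (median -0.01), where 9.2% of all genes were higher. Of the 4, IDH2 alone was called with each library left out in turn (0.51).

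**Figure D4:**
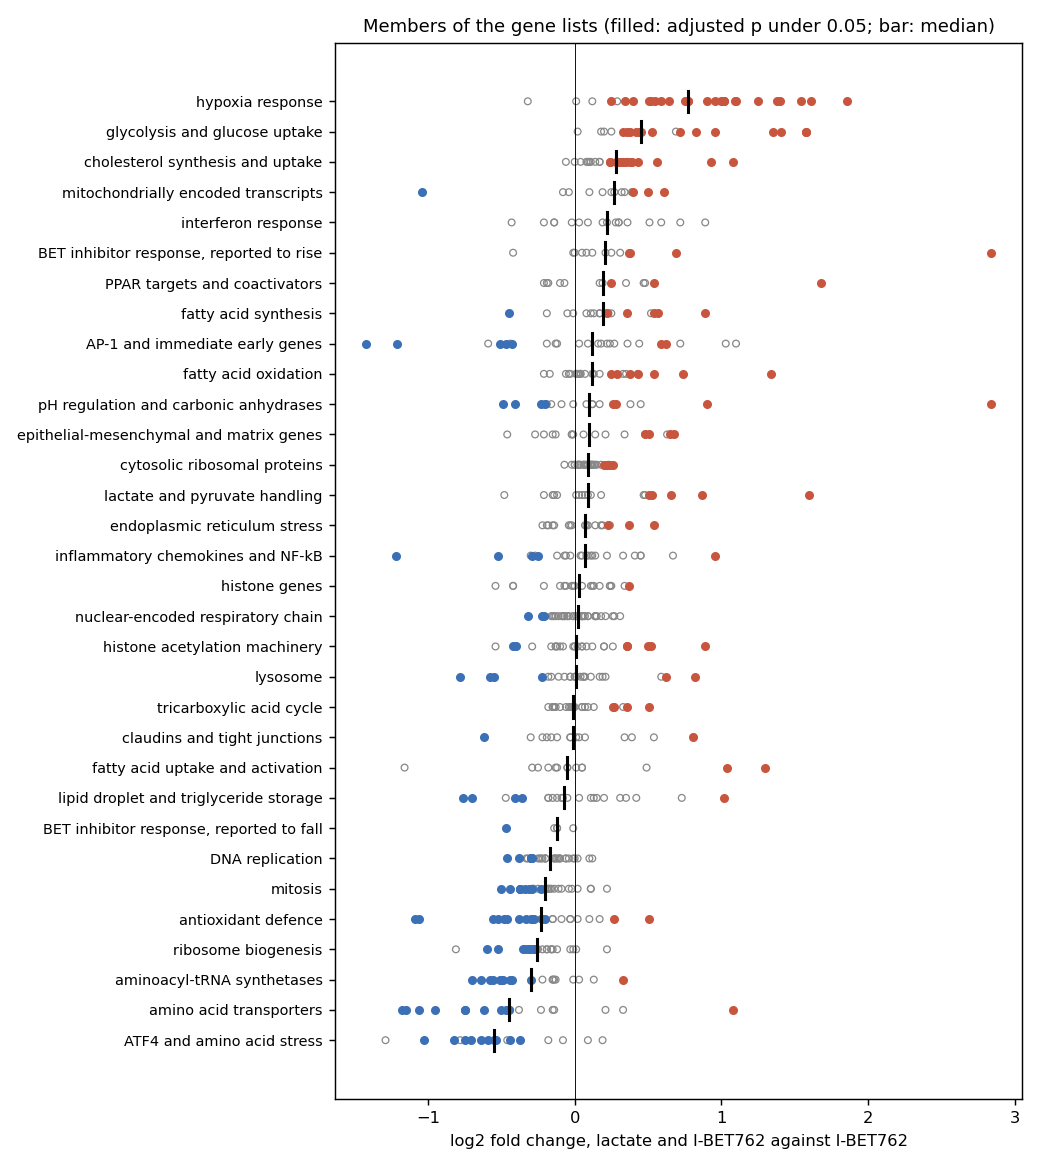
Log2 fold changes (x axis; lactate and I-BET762 against I-BET762) of the tested members of each gene list with at least 5 of them, with filled red and blue points for members called higher and lower, open points for the others and a black bar for the median. The hypoxia list (median 0.77) and glycolysis (0.45) lie farthest to the right, and the ATF4 list (-0.55) and the amino acid transporters (-0.45) farthest to the left.

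The lists of chromatin genes and of genes known from BET inhibition had medians between -0.12 and 0.21, with single members that rose more. In the histone acetylation machinery 5 members of 26 were higher and 2 lower (median 0.01). The rises were ACSS2 and ACLY, which supply acetyl-CoA, and the deacetylases HDAC3 (0.36), HDAC6 (0.52) and HDAC11 (0.50). The falls were the deacetylase HDAC4 and the acetyltransferase KAT2A, so deacetylases went both ways. With 1 library left out HDAC4 ran from -0.47 to -0.33 and was lost without lactate and I-BET762 replicate 4. KAT2A ran from -0.51 to -0.31 and was called in 2 of the 8 fits. This list held 5 higher and 1 lower without the library labelled I-BET762 replicate 2. In the list of histone genes 1 of 20 was higher, the linker histone H1-2 (0.37), where 9.2% of all genes were higher. Without that library 1 was higher and 2 lower. H1-2 was not called without lactate and I-BET762 replicate 4 (adjusted p = 0.0506), nor with offsets for both GC content and exon length (0.29, adjusted p = 0.0543). Histone genes have near-identical copies, so their counts are uncertain. Of 13 genes reported to rise under BET inhibitors 4 were higher and 0 lower, where 9.2% of all genes were higher. These were TXNIP, H1-2, HEXIM2 (0.69) and ZCCHC24 (0.38), and TXNIP alone of the 4 was called with each library left out in turn. HEXIM2 was lost without lactate and I-BET762 replicate 4 and ZCCHC24 without I-BET762 replicate 3 or lactate and I-BET762 replicate 2. Without the library labelled I-BET762 replicate 2 the list held 4 higher and 1 lower. HEXIM1 stood at 149.3, 89.4, 113.6 and 114.1 CPM with I-BET762 and at 143.1, 156.7, 114.5 and 126.3 CPM with lactate added. The groups overlapped (0.21, SE 0.14, edgeR adjusted p = 0.312, and 0.12 without the library labelled I-BET762 replicate 2). In that library the mean of the list of reported rises was -0.40 relative to the I-BET762 mean, against 0.00, 0.16 and 0.23 in the other I-BET762 libraries and 0.18 to 0.55 with lactate. Of 5 genes reported to fall 1 was lower, FOSL1. BRD3, a BET protein, had a value of -0.07 (adjusted p = 0.695) and changed sign without the library labelled I-BET762 replicate 2 (0.02).

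No interferon gene of the 17 tested was called in edgeR's test of the 8 libraries, although the median was 0.22. IFIT1 (0.72, adjusted p = 0.0615), OASL (0.89, adjusted p = 0.08) and IFI6 (0.51, adjusted p = 0.078) came nearest. OASL reached adjusted p = 0.0451 without the library labelled I-BET762 replicate 2 and 0.0293 without lactate and I-BET762 replicate 1. IFIT1 reached 0.0289 and IFI6 0.0268 without the latter library, and IFIT1 0.0493 without lactate and I-BET762 replicate 2. The list mean ran from -0.43 to 0.33 within the I-BET762 libraries and from -0.10 to 0.46 with lactate, so the groups overlapped. DESeq2 called all 3 of these genes, as did edgeR without a filter on low counts. Of 24 chemokine and NF-kB genes 1 was higher and 4 lower (median 0.07), where 9.2% of all genes were higher and 8.83% lower. The balance turned, to 4 higher and 1 lower, without the library labelled I-BET762 replicate 2. The fall called with each library left out in turn was that of the ubiquitin ligase BIRC3 (-0.52, from 195 ± 22 to 136 ± 7 CPM, SD, n = 4 each).

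Of the list of endoplasmic reticulum stress 3 members of 18 were higher and 0 lower, where 9.2% of all genes were higher. MANF led them (0.54) and alone of the 3 was called with each library left out in turn. For genes of pH regulation the counts were 4 and 4 of 18, with the carbonic anhydrase CA13 lower (-0.49) and the proton pump subunit ATP6V0A1 lower (-0.41). TXNIP, described above for glucose uptake, is counted in this list as 1 of the rises. Of the 8 calls, 3 were made with each library left out in turn, those of TXNIP, CA13 and ATP6V0A1. The other rises, the carbonic anhydrase CA12 among them, were each lost in at least 1 such fit. Matrix and epithelial-mesenchymal genes held 4 higher and 0 lower of 18, among them the collagen VI chains COL6A1 (0.65) and COL6A2 (0.68) and TGFBI (0.51). Tight junction genes held 1 higher and 1 lower of 16, fewer in each direction than the 9.2% and 8.83% of all genes. CLDN15 was lower (-0.62). The rise was that of TJP3 (0.81, adjusted p = 0.0401), with overlapping groups, and with 1 library left out it was called only without lactate and I-BET762 replicate 1, with adjusted p up to 0.123 in the other fits (0.0643 without the library labelled I-BET762 replicate 2).

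The other genes with the largest changes among those called, with no overlap and means of 5 CPM or more, were of mixed kinds. PPP1R3G, which targets a phosphatase to glycogen, stood at 2.5 ± 0.8 and 7.9 ± 1.6 CPM (SD, n = 4 each; 1.67). BAIAP3, a regulator of vesicle traffic, rose by 1.67 and the nucleotide hydrolase NUDT18 by 1.61, from 6.3 ± 1.2 to 19.4 ± 2.9 CPM. The small GTPase RASD1 fell from 17.9 ± 3.7 to 8.0 ± 2.1 CPM (-1.16). SLC25A25-AS1, an antisense RNA, fell by 1.30 on the log2 scale, and its reads cannot be told from those of the overlapping gene without a strand-aware count. RPL13AP20, a pseudogene of a ribosomal protein whose reads can be shared with its parent, had a log2 fold change of -1.22 with the library labelled I-BET762 replicate 2 and of -0.84 without it.

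Markers of other cell types were low. Of 6 basal markers KRT5, KRT14 and KRT6A were at 0 in all 8 libraries and 1 was tested, KRT15. It stood at 2.9, 8.3, 17.6 and 18.4 CPM with I-BET762 and at 4.0 to 5.1 CPM with lactate, overlapped between the groups, and was called (-1.42, adjusted p = 0.0407). The call was lost without I-BET762 replicate 3 or 4 and without any 1 of the libraries with lactate, with adjusted p up to 0.118, and in DESeq2 (adjusted p = 0.0503). Of 8 neuroendocrine markers CHGA, CHGB, NEUROD1 and INSM1 were at 0, and the summed level of 44.8 to 64.8 CPM with I-BET762 and of 133.6 to 166.3 CPM with lactate was almost all ENO2, which is also a glycolysis gene. SYP, the other marker tested, fell from 2.3, 1.3, 2.6 and 2.7 CPM to 1.0 to 1.3 CPM (-0.88, adjusted p = 0.0306), and with 1 library left out it was called only without the library labelled I-BET762 replicate 2 or lactate and I-BET762 replicate 3. Of 8 leukocyte markers CD3E was at 0 and PTPRC under 1 CPM. Their sum was 24.9 to 31.5 CPM with I-BET762 and 36.9 to 42.6 CPM with lactate, and most of it was CD74, which rose by 0.54. Of 9 fibroblast markers DCN and LUM were at 0 and 7 were under 1 CPM in every library, with sums of 4.70 to 7.93 and 5.26 to 10.4 CPM. All 6 endothelial markers were under 1 CPM. The 4 tested of 11 luminal markers did not pass, with sums of 1894 to 1978 CPM and of 1900 to 2502 CPM.

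The same lactate effect was measured without the inhibitor in the other 8 libraries of the study, which share no library with the comparison above. There 719 genes were higher (5.12% of 14052) and 170 lower (1.21%). Of the genes tested in both comparisons, 519 were called in both, which is 20.7% of the 2513 calls under I-BET762 and 60.7% of the 855 calls without it. All 519 went the same way. Of the 2513 calls under I-BET762, 93.4% had the same sign without the inhibitor, against 74.2% of all 13782 genes. As a description across genes, which are not independent replicates, the log2 fold changes had Pearson's r of 0.67 and Spearman's rho of 0.65. The count of 889 without the inhibitor moved by over 1.5 times whichever of its 8 libraries was left out, from 111 (without lactate replicate 4) to 1876 (without lactate replicate 1), and it was 153 after correction for GC content, so the difference between the counts of the 2 comparisons is no measure of a weaker or stronger response.

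The test of the difference between the lactate effects, an interaction term over all 16 libraries, called 0 of 14690 genes in edgeR and 0 in DESeq2. The smallest adjusted p was 0.7, and 894 genes had an unadjusted p under 0.05. The median SE of this difference was 0.26 on the log2 scale, against 0.12 for the effect under I-BET762, so differences of moderate size could not be resolved. For BNIP3 the lactate effect was 1.54 with the inhibitor and 1.44 without (difference 0.10, SE 0.18). For PFKFB4 it was 1.58 and 1.45, for PDK1 1.60 and 1.49, for LOX 1.61 and 1.63 and for SLC1A4 -1.18 and -1.14. The hypoxia list had medians of 0.77 and 0.74, with 17 of 29 members higher without the inhibitor, and glycolysis 0.45 and 0.33, with 5 of 19. Amino acid transporters had medians of -0.45 and -0.53 and the synthetases of -0.30 and -0.40. The ATF4 list stood at -0.55 with the inhibitor and at -0.17 without, where 2 of 17 members were lower. Other lists had unlike medians too. The mitochondrially encoded transcripts changed sign, from 0.27 with the inhibitor to -0.32 without. The cytosolic ribosomal proteins stood at 0.09 and 0.6, the nuclear-encoded respiratory chain at 0.02 and 0.49 and the interferon list at 0.22 and 0.55. Without the inhibitor 0 of 13, 1 of 30, 5 of 36 and 2 of 18 of their members were higher and 0 lower. Differences between list medians were not tested.

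Some named genes had unlike values on the 2 sides, none of them past the adjusted threshold of the interaction. CHAC1 stood at -1.03 with the inhibitor and at -0.17 without it (difference -0.85, unadjusted p = 0.00982). ANGPTL4 stood at 0.48 and 1.30 (difference -0.82, unadjusted p = 0.00418), SPAG4 at 1.86 and 2.56 (difference -0.70, unadjusted p = 0.00996) and SLC16A3 at 0.87 and 1.44 (difference -0.56, unadjusted p = 0.0386). For SLC16A3 the mean was 106 CPM in the controls and 287 CPM with lactate, and 171 CPM with I-BET762 and 314 CPM with both. These 2 pairs of groups were scaled separately, so levels are not compared across them. ACLY stood at 0.36 and 0.01 (difference 0.34, unadjusted p = 0.18).

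**Figure D5:**
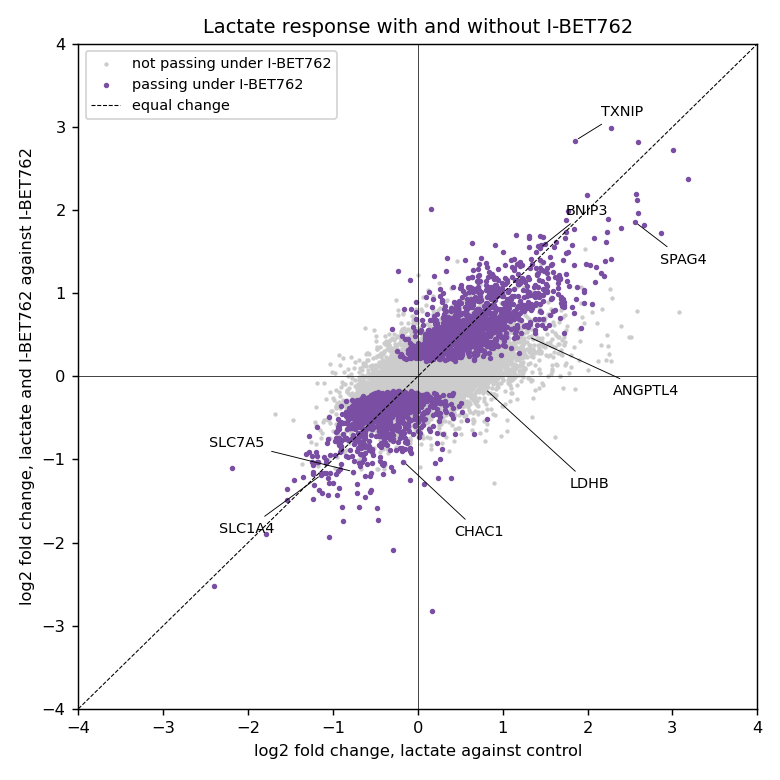
Each point is 1 of the 13782 genes tested in both comparisons, with the log2 fold change of lactate against control on the x axis and that of lactate and I-BET762 against I-BET762 on the y axis, purple for genes called under I-BET762 and a dashed line for equal change. Most purple points lie in the quadrants of equal sign (93.4%), BNIP3 and SLC1A4 lie close to the line, and CHAC1 and ANGPTL4 lie off it.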

How the data were processed

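Libraries were polyA-selected and strand-marking, made from 800 ng of RNA and sequenced as single ends of 75 bp, per the labels' protocols. The authors deposited raw counts per Ensembl gene for 64792 identifiers in 16 libraries. Per the submitters' processing notes, the tools included STAR 2.6.1c and DESeq, on GRCh38.p12 or hg38. Which counter, strand setting and annotation were used is not given in the sources used here, so counts of overlapping, antisense and near-identical genes are uncertain. Symbols were found for 42465 identifiers in a gene name table and GENCODE, whose GRCh38 coordinates are used.

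Genes were kept by filterByExpr (minimum count 10, minimum total 15). After TMM scaling the 8 libraries were fitted in edgeR 4.0.16 (R 4.3.3) by quasi-likelihood, two-sided, with 6 residual degrees of freedom. The common biological coefficient of variation was 0.115. Adjusted p-values are Benjamini-Hochberg over all genes tested, with a threshold of 0.05. Fold changes are log2 values, with their SE. Lactate against control was fitted likewise on its own 8 libraries, and the interaction on all 16. Principal components and list means used log2 CPM with a prior count of 2. The comparison, the 38 gene lists (803 of 804 entries matched) and the naming rule were chosen with earlier results of these data known. The rule named 15 metabolic and BET genes whatever their result, the 8 largest rises and 8 largest falls among called genes without overlap whose mean was 5 CPM or more, and up to 3 members of each list by smallest p. Other list members named were chosen after their values were seen. A few list members are counted in their lists, and their own values are not reported here. On counts simulated for 13908 genes, 64 of 100 genes changed 1.5-fold and 93 of 100 changed 2-fold were recovered, and 5 of 162 calls (3.09%) were false. The simulated counts were drawn independently at the spread that edgeR had fitted. They held no split of replicates and no trend on GC content, so these shares are no measure of false calls in the real libraries. Alternatives were RLE factors, library totals, no filter, DESeq2 1.42.0, a replicate block, offsets for GC content and exon length, a model of all 16 libraries and each library left out. The split of replicates 1 and 2 from 3 and 4 was added after seeing the data. Replicates were not duplicates of each other, but they were unequally close. The chi-square per degree of freedom between 2 libraries of a group was 2.08 for I-BET762 replicates 3 and 4. It was 4.09 for lactate and I-BET762 replicates 1 and 2, and 8.21 to 17.68 for the other pairs. The labels do not say whether the closest libraries were separate cultures. The promoter sequences are those of RefSeq.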

Additional observations from a re-analysis of the deposited data

Results flagged for a closer look

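For each of the 114 genes that the rule named and whose values are reported, and for the library totals, each group of 4 libraries was searched for a library whose gap to its nearest neighbour took up more of the range of the group than Dixon's 95% critical value allows. This held in 7 of 230 groups (3.04%), and chance gives about 1 in 20. In each of these 7 groups the library was replicate 1, and it was the highest of its group.

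With I-BET762, replicate 1 held 609.8 CPM of PGK1 against 519.3 to 531 CPM in the other 3 libraries, and 26.2 CPM of FAM162A against 20.7 to 21.5 CPM. It held 374.9 CPM of MCM3 against 329.6 to 335.6 CPM, 216.5 CPM of H2AZ2 against 183.1 to 185.8 CPM and 27.2 CPM of ARSA against 19.9 to 20.8 CPM. With both agents, replicate 1 held 75.7 CPM of LDHB against 69.6 to 70.1 CPM and 59.1 CPM of FAM162A against 50.6 to 51.6 CPM.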

How the results depend on the processing

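For the effect of lactate under I-BET762, all 2535 calls kept their direction in every alternative in which they had a value. The count was 2531 with RLE factors, 2491 with library totals (55.4% of them higher, against 51%), 2683 without a filter, 2968 in DESeq2, 2711 with a GC offset and 2753 with GC content and exon length. Not all of these were the same genes. Of the 2535 calls, 2140 were made again with the GC offset and 2122 with GC content and exon length. Without a filter 2178 were, and in DESeq2 2471. The count was 720 (490 higher, 230 lower) in the model of all 16 libraries. With 1 library left out the count ran from 1457 to 2442, with 829 to 1389 higher and 628 to 1058 lower. The replicate numbers were not taken to pair the libraries: same-numbered libraries deviated together at r = 0.30, 0.20 and 0.33 in 3 pairs and 0.07 in the last, and not every library was closest to its own number. With replicate number as a block the count was 3647, with IFIT1 (adjusted p = 0.0179), IFI6 (0.0109) and OASL (0.0498) among the calls, and with the block and a GC offset 4248 (2048 higher, 2200 lower). Added after seeing the data, a term for replicates 1 and 2 against 3 and 4 gave 4032 (2006 and 2026), and replicates 1 and 2 alone 488 (273 and 215), where CCND1 (0.03), OASL (-0.05), CD14 (-0.17) and KRT8 (-0.03), none of them called, changed sign. With 1 library left out BRD3 (-0.14 to 0.02) and CD14 (-0.11 to 0.55) did so. Of 93 named calls, 55 held in the model of all 16 libraries, 55 in replicates 1 and 2 alone and 77 to 89 with 1 library left out. Among the named calls, the offset for GC content alone ended those of TJP3 (0.62), RPL3 (0.16), RPL10A (0.14) and SLC25A1 (0.33). The interaction gave 3 genes without a filter and 0 in the other alternatives. Lactate without the inhibitor, 889 genes, gave 1340 without a filter, 2187 in DESeq2, 153 with a GC offset, 392 with GC content and exon length, 98 with block and GC offset, 3486 in the model of all 16 libraries and 111 to 1876 with 1 library left out. Why these counts moved was not tested. Depth limits genes of a few counts, such as SLC16A1.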

Other observations

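Several genes outside the lists and the naming rule changed with little spread, and they are given as values, chosen after these were seen. MIR210HG (ENSG00000247095), the host transcript of a microRNA known from hypoxia, stood at 0.8, 0.7, 0.8 and 1.2 CPM with I-BET762 and at 5.8, 6.2, 6.0 and 7.8 CPM with lactate added (log2 fold change 2.82, SE 0.21, edgeR adjusted p = 3.45e-05). Its mean over the 8 libraries was below the 5 CPM that the rule asks for in the largest changes. NIPSNAP1, a mitochondrial protein that marks damaged mitochondria for removal, went from 107.8, 101.6, 102.7 and 105.6 CPM to 177.3, 175.1, 196.4 and 181.1 CPM (0.81, SE 0.06). C4orf3, a small membrane protein, rose from 84.2 ± 9.1 to 165 ± 12 CPM (SD, n = 4 each; 0.97), the nucleoside transporter SLC29A2 by 0.88 and ADAMTSL4, a matrix protein, by 1.26.

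ETNK1, the ethanolamine kinase that begins the synthesis of phosphatidylethanolamine, fell from 114.3, 128.6, 120.8 and 129.3 CPM to 70.2, 73.4, 71.4 and 74.2 CPM (-0.77, SE 0.06, edgeR adjusted p = 5.73e-05). JADE2, a subunit of a histone acetyltransferase complex, fell from 116.3, 143.3, 139.7 and 136.8 CPM to 77.6, 67.0, 72.9 and 72.6 CPM (-0.89, SE 0.08). The libraries of the groups did not overlap in any of these 7 genes.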
